A study of Mus musculus with 6 samples.

Results

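10 genes of cholesterol efflux, oxysterol synthesis, lysosomal cholesterol release and lipid storage were followed in mouse primary visual (V1) cortex: Nr1h3, Abca1, Abcg1, Ch25h, Soat1, Plin2, Npc1, Npc2, Lipa and Fabp5. They were taken by symbol, each matched 1 entry, and they make up 10 of the 54532 entries of the expression table. All mice were C57BL females aged 9 weeks, and all had an adeno-associated virus (AAV) injected into V1: AAV-shControl in the controls, AAV-shCSB, or AAV-shCSB/shNDN. CSB is the DNA repair and chromatin remodelling protein encoded by Ercc6 and mutated in Cockayne syndrome, and NDN is Necdin, encoded by Ndn and abundant in neurons. Each group had 2 libraries of total RNA, from 2 mice per genotype, so the spread between libraries includes that between animals. The control animals also carry the viral injection. The promoter driving the hairpins, the cells that were infected and the time from injection to collection are not given in the sources used here.

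Cells export surplus cholesterol through the transporters ABCA1 and ABCG1, which load it onto apolipoproteins. Their genes are switched on by the liver X receptors, nuclear receptors activated by oxysterols, so a cell that fills with cholesterol raises its own export. Cholesterol taken up with lipoproteins or cell debris is freed in the lysosome by LIPA and carried out by NPC2 and NPC1. What is not exported can be esterified by SOAT1 and stored in lipid droplets coated by PLIN2. In brain, microglia that digest myelin and dying cells depend on this route, and astrocytes use it to supply neurons with lipid.

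The libraries held 15731788 to 17365285 reads in genes, as recovered from the table. All 8 neuron markers were expressed in every library, as the cortex label requires. Ercc6, the target of the CSB hairpin, was not lower under either hairpin. Its level in FPKM, the sequenced fragments scaled to gene length and library size, was 1.46 and 1.22 in shControl, 1.29 and 1.61 in shCSB and 1.61 and 1.81 in shCSB/shNDN, so the groups are called by their labels. For Ndn, the target of the second hairpin, shControl had FPKM of 56.1 and 49.8, shCSB 47.9 and 38.1, and shCSB/shNDN 16.8 and 41.0, so that only replicate 1 of shCSB/shNDN stood well below the other libraries. Its difference between shCSB/shNDN and shControl was -0.98 ± 0.39 (SE) on the log2(FPKM + 1) scale (limma, adjusted p = 0.362). The shCSB/shNDN libraries differed from each other more than the other pairs did: 9.13% of the 16254 expressed genes differed by over 1 on that scale between them, against 1.46% in shControl and 1.96% in shCSB. The second of them also had 1.41% of its reads from mitochondrial genes, against 4.95% to 7.65% in the other 5 libraries, and 435 entries with exactly 1 read, against 1597 to 1839. Results that rest on these libraries are therefore given for each of them.

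All 10 genes were highest, among the 6 libraries, in shCSB/shNDN replicate 1, as were 20.5% of all expressed genes. Of the 10, 7 were above both controls in both shCSB/shNDN libraries, as were 20.7% of all expressed genes. The genes with the greatest FPKM ratios of the shCSB/shNDN mean to the shControl mean were Ch25h at 94.7, Plin2 at 6.90 and Abca1 at 5.03. None of the 10 passed an adjusted p of 0.05 in any of the 3 comparisons (limma across all expressed genes, 2-sided, Benjamini-Hochberg). In shCSB against shControl none of the 10 had an unadjusted p under 0.05 either, where 1.94% of all expressed genes did. The difference between shCSB/shNDN and shControl had an unadjusted p under 0.05 for 7 of the 10, all higher, against 13.4% of all expressed genes in either direction. Against shCSB it did so for 6 of the 10, all higher, against 8.43%. After adjustment, 0% of all expressed genes were called in shCSB against shControl, 0% in shCSB/shNDN against shCSB and 0.00615% in shCSB/shNDN against shControl. That last share is 1 gene, the microRNA entry Mir6929, named here after its values were seen, with FPKM of 6.42 and 7.00 in shControl, 0.911 and 0.839 in shCSB and 0 in both shCSB/shNDN libraries. The comparisons share groups, so they are not independent of each other.

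**Figure D1:**
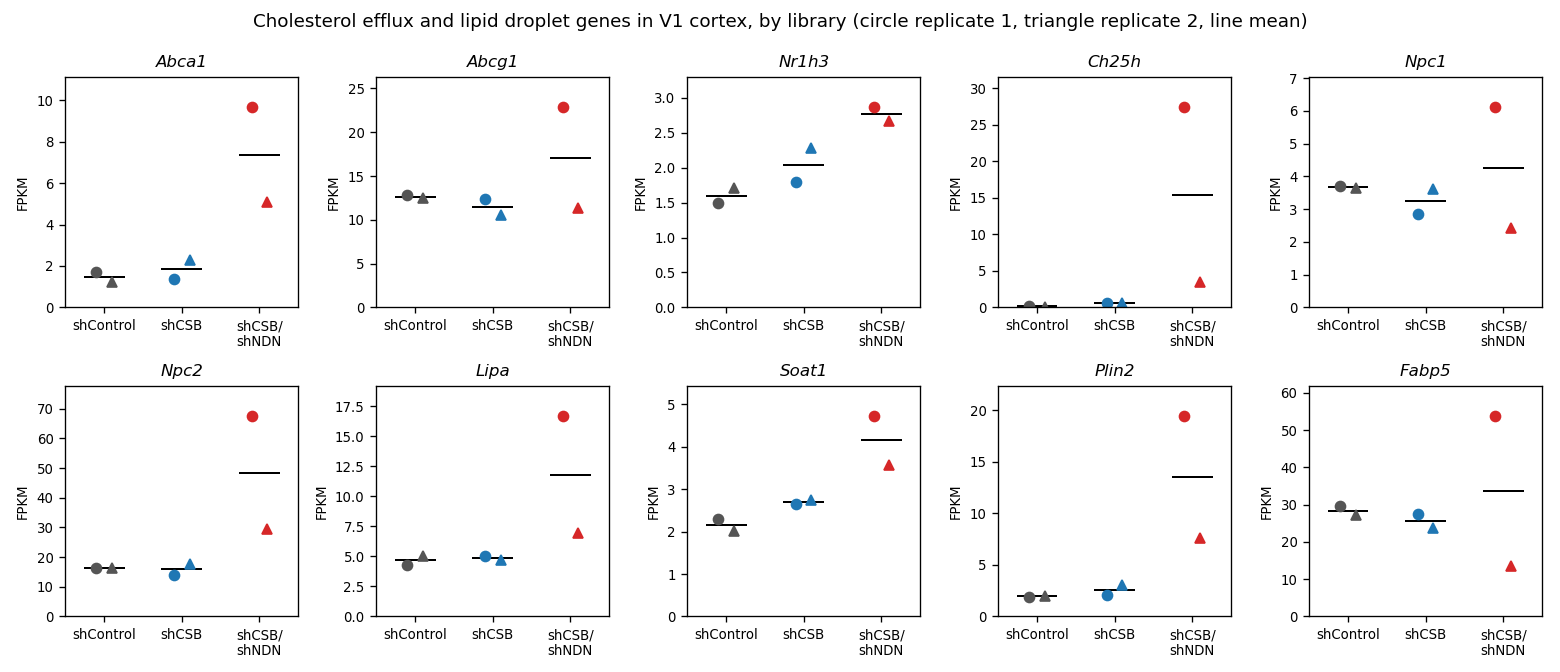
FPKM of the 10 genes in each of the 6 libraries. Each panel is 1 gene with its own linear axis from 0, circles are replicate 1, triangles replicate 2 and lines group means. Ch25h runs from 0.0992 in a shControl library to 27.4 in shCSB/shNDN replicate 1, and in every panel that library is the highest point.

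Nr1h3 encodes liver X receptor alpha, the oxysterol receptor that turns on the exporters (ENSMUSG00000002108, GRCm38 chromosome 2, 91184061 to 91202834, minus strand). Its FPKM was 1.49 and 1.70 in shControl, 1.80 and 2.28 in shCSB and 2.87 and 2.67 in shCSB/shNDN. The 3 groups did not overlap, and the shCSB/shNDN libraries lay closer together than for any other of the 10 genes, at 1.07 times each other. The difference of shCSB/shNDN from shControl was 0.54 ± 0.17 (SE) on the log2(FPKM + 1) scale, with a 95% interval of 0.12 to 0.95 (limma, unadjusted p = 0.0186, adjusted p = 0.311). That of shCSB from shControl was 0.22 ± 0.17 (adjusted p = 1). It rests on 61 to 123 reads a library, and 34 of its exon bases (1.35%) also belong to Gm13783 on the same strand.

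Abca1 encodes the transporter that passes cholesterol and phospholipid to lipid-poor apolipoproteins such as APOE (ENSMUSG00000015243, chromosome 4, 53030787 to 53159895, minus strand). Its FPKM was 1.71 and 1.22 in shControl, 1.37 and 2.30 in shCSB and 9.66 and 5.09 in shCSB/shNDN. The shControl and shCSB libraries overlapped, and both shCSB/shNDN libraries lay above all 4 others. On the log2(FPKM + 1) scale the difference of shCSB/shNDN was 1.71 ± 0.31 (SE; interval 0.96 to 2.47) from shControl and 1.52 ± 0.31 (interval 0.77 to 2.28) from shCSB (limma, unadjusted p = 0.00122 and 0.00227, adjusted p = 0.175 and 0.358). With shCSB/shNDN replicate 1 left out, the difference from shControl was 1.31, and with replicate 2 left out it was 2.12. In both cases the single shCSB/shNDN library left is assumed to vary like the other groups. Only the difference is therefore given for such fits, here and below.

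Abcg1 encodes the exporter that hands cholesterol to lipidated particles and, in brain, is made by neurons and glia (ENSMUSG00000024030, chromosome 17, 31057698 to 31115777, plus strand). Its FPKM was 12.8 and 12.4 in shControl, 12.4 and 10.6 in shCSB and 22.9 and 11.3 in shCSB/shNDN. Only shCSB/shNDN replicate 1 stood apart, and replicate 2 lay below both controls. The difference from shControl was 0.33 ± 0.31 (SE; limma, adjusted p = 0.672), with an interval of -0.42 to 1.08. Relative to the control mean, Abca1 stood at 6.58 and 3.47 times in replicates 1 and 2 of shCSB/shNDN, and Abcg1 at 1.81 and 0.895 times. Against shCSB the Abcg1 difference was 0.46 ± 0.31 (limma, adjusted p = 0.724), and 0.94 without shCSB/shNDN replicate 2 or -0.021 without replicate 1. Against shControl it was 0.81 without replicate 2 and -0.15 without replicate 1.

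Ch25h encodes the hydroxylase that turns cholesterol into an oxysterol, a ligand of the liver X receptors, and in brain it is made mainly by activated microglia and macrophages (ENSMUSG00000050370, chromosome 19, 34473786 to 34475135, minus strand). Its FPKM was 0.227 and 0.0992 in shControl, 0.633 and 0.666 in shCSB and 27.4 and 3.51 in shCSB/shNDN. These came from 5, 2, 14, 16, 632 and 81 reads. The 3 groups did not overlap, and the shCSB/shNDN libraries differed by 7.82 times. The difference of shCSB/shNDN from shControl was 3.28 ± 0.76 (SE; interval 1.46 to 5.11) on the log2(FPKM + 1) scale (limma, unadjusted p = 0.00423, adjusted p = 0.241). That scale understates the change of a gene so low in the controls. Summed over libraries and scaled by depth, the reads were 93.0 times higher in shCSB/shNDN than in shControl, with an exact 95% interval of 44.9 to 232 that covers counting error only. The corresponding ratio of shCSB to shControl was 3.91, with an interval of 1.68 to 10.6, from 30 and 7 reads. The limma difference for that comparison was 0.51 ± 0.76 (interval -1.32 to 2.34, adjusted p = 1). Without shCSB/shNDN replicate 1 the difference from shControl was 1.96, and without replicate 2 it was 4.61. Of its 1387 exon bases, 159 (11.5%) also belong to Gm26902 on the other strand, and whether strand was used in counting is not given in the sources used here.

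Soat1 encodes the enzyme that esterifies cholesterol for storage (ENSMUSG00000026600, chromosome 1, 156424525 to 156474331, minus strand). Its FPKM was 2.30 and 2.01 in shControl, 2.66 and 2.75 in shCSB and 4.72 and 3.58 in shCSB/shNDN. The 3 groups did not overlap. The difference of shCSB/shNDN from shControl was 0.70 ± 0.18 (SE; interval 0.27 to 1.13; limma, unadjusted p = 0.00679, adjusted p = 0.257), and that of shCSB from shControl 0.23 ± 0.18 (adjusted p = 1). Without shCSB/shNDN replicate 2 the first of these was 0.86, and without replicate 1 it was 0.54.

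Plin2 encodes perilipin 2, the coat protein of lipid droplets in cells other than fat cells (ENSMUSG00000028494, chromosome 4, 86648386 to 86670060, minus strand). Its FPKM was 1.91 and 2.00 in shControl, 2.10 and 3.04 in shCSB and 19.4 and 7.55 in shCSB/shNDN. Again the groups did not overlap, although the step from shControl to shCSB was small beside the gap within shCSB. The difference of shCSB/shNDN was 2.16 ± 0.39 (SE; interval 1.21 to 3.11) from shControl and 1.90 ± 0.39 (interval 0.95 to 2.85) from shCSB (limma, unadjusted p = 0.00123 and 0.00243, adjusted p = 0.175 and 0.365). Without replicate 1 of shCSB/shNDN the difference from shControl was 1.53, and without replicate 2 it was 2.79.

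The sequences before the starts of Abca1, Ch25h and Plin2 are shown because these 3 genes had the greatest differences. They are the 250 bases before the RefSeq start, GRCm38.p6, read on the minus strand 5′ to 3′: chr4:53159896-53160145 for Abca1, chr19:34475149-34475398 for Ch25h and chr4:86670060-86670309 for Plin2. Capitals mark matches to the motifs described after them.
Abca1: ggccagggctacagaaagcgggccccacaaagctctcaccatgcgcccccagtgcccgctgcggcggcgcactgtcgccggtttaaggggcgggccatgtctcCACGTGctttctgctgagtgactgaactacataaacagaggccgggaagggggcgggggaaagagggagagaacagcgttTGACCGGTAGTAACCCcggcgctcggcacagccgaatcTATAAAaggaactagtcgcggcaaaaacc
Ch25h: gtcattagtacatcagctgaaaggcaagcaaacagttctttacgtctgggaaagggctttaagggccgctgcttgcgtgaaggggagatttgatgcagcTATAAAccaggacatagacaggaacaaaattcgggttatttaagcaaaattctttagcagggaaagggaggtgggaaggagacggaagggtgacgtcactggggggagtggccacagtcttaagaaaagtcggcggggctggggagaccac
Plin2: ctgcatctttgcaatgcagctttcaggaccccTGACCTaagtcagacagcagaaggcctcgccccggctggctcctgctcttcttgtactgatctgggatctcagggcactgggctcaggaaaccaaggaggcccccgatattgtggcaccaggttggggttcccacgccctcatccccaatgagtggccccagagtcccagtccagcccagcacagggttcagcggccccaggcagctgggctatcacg
Liver X receptors bind paired copies of a nuclear receptor motif spaced by 4 bases. AGGTNA in 2 copies in the same direction, 4 bases apart, was in none of the 8 windows found for 7 of the 10 genes, and in 0.0913% of all 32851 windows of that length, both strands searched. A looser form, NGGTNA in 2 copies 4 bases apart, which contains the first and was chosen after the Abca1 sequence was seen, was found in the Abca1 window at 67 to 52 bases before the start and in 0.621% of all windows. A single AGGTCA, the nuclear receptor motif alone, was in the Plin2 window at 218 to 213 bases before the start and in 14.0% of all windows. The E-box CACGTG was in the Abca1 window at 147 to 142 bases before the start and in 6.02% of all windows. Its longer form TCACGTGA, the motif of the lysosomal regulator TFEB, was in none of the 8 windows and in 0.785% of all. GAGGAAGT, a motif of the myeloid factor PU.1, was in none of the 8 and in 2.44% of all. TATAAA was in the Abca1 window at 29 to 24 bases before the start, the usual place of a TATA box, in the Ch25h window at 151 to 146, in the Lipa window at 239 to 234, and in 12.4% of all windows. A match is a run of letters, not a shown binding site.

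Npc1 and Npc2 encode the membrane and the soluble protein that pass cholesterol out of the lysosome, and loss of either causes Niemann-Pick type C disease. Npc2 (ENSMUSG00000021242, chromosome 12, 84754562 to 84773152, minus strand) had FPKM of 16.3 and 16.3 in shControl, 14.1 and 17.6 in shCSB and 67.5 and 29.5 in shCSB/shNDN. Both shCSB/shNDN libraries lay above all others, while shCSB spanned the controls. Its difference of shCSB/shNDN from shControl was 1.40 ± 0.37 (SE), with an interval of 0.52 to 2.28 (limma, unadjusted p = 0.00777, adjusted p = 0.265). This difference was 0.82 without replicate 1 and 1.98 without replicate 2 of shCSB/shNDN. Npc1 (ENSMUSG00000024413, chromosome 18, 12189693 to 12236400, minus strand) had FPKM of 3.71 and 3.65 in shControl, 2.85 and 3.63 in shCSB and 6.11 and 2.43 in shCSB/shNDN. Its shCSB/shNDN libraries lay on either side of the controls. The difference from shControl was 0.078 ± 0.34 (SE; interval -0.73 to 0.89; limma, adjusted p = 0.939). Of its exon bases, 4.52% also belong to Rmc1 and 0.795% to Gm15956, both on the other strand.

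Lipa encodes the lysosomal acid lipase that hydrolyses cholesteryl esters and triglycerides (ENSMUSG00000024781, chromosome 19, 34492318 to 34527474, minus strand). It lies 17182 bases from Ch25h. Its FPKM was 4.28 and 5.05 in shControl, 5.04 and 4.73 in shCSB and 16.7 and 6.97 in shCSB/shNDN. The shControl and shCSB libraries overlapped, and both shCSB/shNDN libraries lay above them. The difference of shCSB/shNDN from shControl was 1.07 ± 0.36 (SE; interval 0.21 to 1.93; limma, unadjusted p = 0.0221, adjusted p = 0.316). It was 1.64 without replicate 2 of shCSB/shNDN, and 0.49 without replicate 1.

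Fabp5 encodes a fatty acid binding protein of neural progenitors, glia and neurons (ENSMUSG00000027533, chromosome 3, 10012548 to 10016607, plus strand). It was the gene of the 10 with the highest FPKM in shControl, at 29.6 and 27.2, with 27.6 and 23.6 in shCSB and 53.7 and 13.5 in shCSB/shNDN. The shCSB/shNDN libraries were the highest and the lowest of the 6. The difference from shControl was -0.059 ± 0.56 (SE; interval -1.40 to 1.29; limma, adjusted p = 0.974). It was 0.90 with replicate 1 alone and -1.02 with replicate 2 alone. The 2 other entries described as copies of Fabp5, Fabp5l2 and a pseudogene, are listed at 0 in every library.

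**Figure D2:**
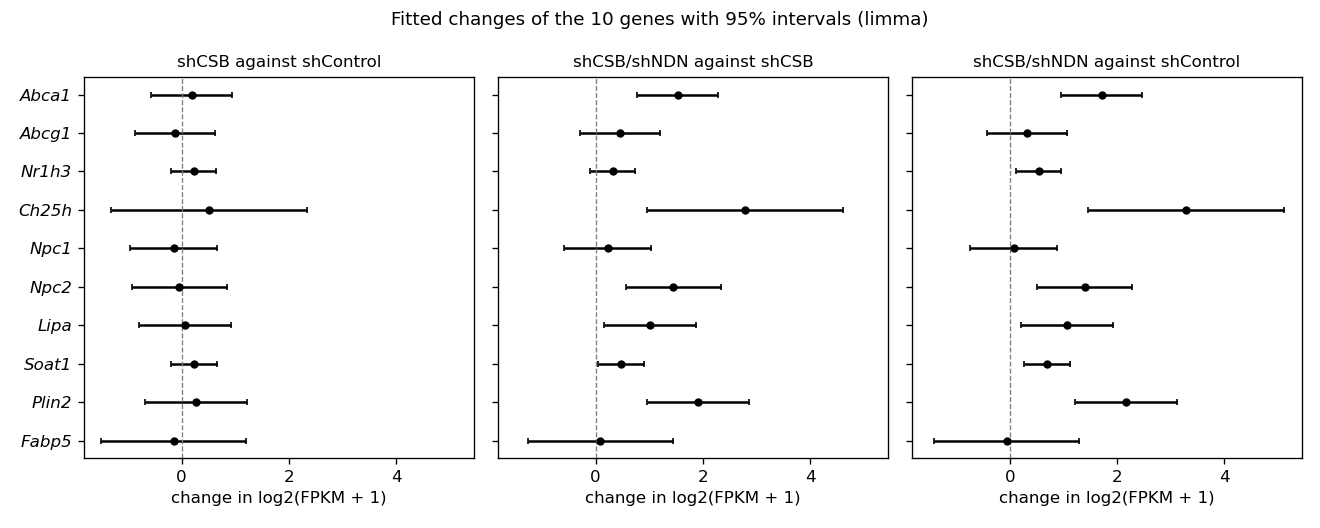
Difference in log2(FPKM + 1) between groups for the 10 genes in the 3 comparisons, with points for the limma estimate and bars for its 95% interval. In shCSB/shNDN against shControl the intervals of 7 genes lie above 0, from Nr1h3 at 0.54 to Ch25h at 3.28, and those of Abcg1, Npc1 and Fabp5 include 0.

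Replicate 1 was above replicate 2 of shCSB/shNDN for 10 of the 10 genes, as it was for 53.4% of all expressed genes. The 2 libraries differed by over 1 on the log2(FPKM + 1) scale for 6 of the 10, all with replicate 1 higher. Of all expressed genes, 9.13% did so, and 6.54% did so with replicate 1 higher. No gene of the 10 differed by as much within shControl or shCSB, against 1.46% and 1.96% of all expressed genes. Set against the control mean, the FPKM in replicates 1 and 2 was 168 and 21.5 times as high for Ch25h, 9.93 and 3.87 for Plin2 and 4.14 and 1.81 for Npc2. The narrowest pairs were 1.79 and 1.67 for Nr1h3 and 2.19 and 1.66 for Soat1. For Npc1 the pair was 1.66 and 0.660, and for Fabp5 1.89 and 0.476, so these genes lay on opposite sides of the control mean in the 2 libraries. With replicate 2 as the only shCSB/shNDN library, 7 of the 10 were higher than in shCSB. The differences of the 10 ran from -0.87 for Fabp5 to 1.45 for Ch25h, with Plin2 at 1.27 and Npc2 at 0.86. The median difference over all expressed genes was -0.018. With replicate 1 as the only one, all 10 were higher than in shCSB, from Nr1h3 at 0.35 to Ch25h at 4.11. The median over all expressed genes was then -0.023. The shares of all expressed genes that were higher in these fits were not counted. Both shCSB/shNDN libraries lay above both controls for 7 of the 10, and for 20.7% of all expressed genes, and below both controls for none, against 23.7% of all expressed genes. Against shCSB the same 7 of 10 lay above, with 16.5% of all expressed genes, and none below, with 18.4%. In shCSB against shControl, 4 of the 10 lay above and 2 below, with 18.3% and 18.1% of all expressed genes. The 4 were Ch25h, Nr1h3, Plin2 and Soat1, and the 2 were Abcg1 and Npc1, and none of these differences had an unadjusted p under 0.05. The median difference over the 10 was 0.12 in that comparison, 0.74 in shCSB/shNDN against shCSB and 0.88 in shCSB/shNDN against shControl, where the medians over all expressed genes were -0.0035, -0.0083 and -0.0075.

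Microglia markers were also higher in these libraries, and in whole cortex more cells of a type and more RNA per cell cannot be told apart. The summed FPKM of 10 microglia markers was 100.3 and 108 in shControl, 112 and 140 in shCSB and 697 and 236 in shCSB/shNDN. Of the 10, 8 lay above both controls in both shCSB/shNDN libraries, among them Csf1r, the receptor microglia need to survive, at 74.3 and 25.3 against 18.2 and 19.7. P2ry12, a receptor of resting microglia named here after its values were seen, was at 15.8 in replicate 1 and at 3.51 in replicate 2, against 7.94 and 8.47 in shControl. The part of these marker levels in the differences above was not tested.

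As a percentage of the microglia marker sum, which is itself measured in the same libraries, the 10 genes spread out. Ch25h was at 0.227% and 0.0921% in shControl, 0.564% and 0.474% in shCSB and 3.93% and 1.49% in shCSB/shNDN, so it stayed higher on this scale. Plin2 was at 1.90% and 1.86% in shControl and 2.78% and 3.21% in shCSB/shNDN, and Abca1 at 1.71% and 1.13% and then 1.39% and 2.16%, which overlap. The other 7 genes were lower relative to the marker sum in both shCSB/shNDN libraries than in both controls, among them Abcg1, at 12.8% and 11.5% in shControl and 3.28% and 4.80% in shCSB/shNDN. These are descriptions without a test.

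**Figure D3:**
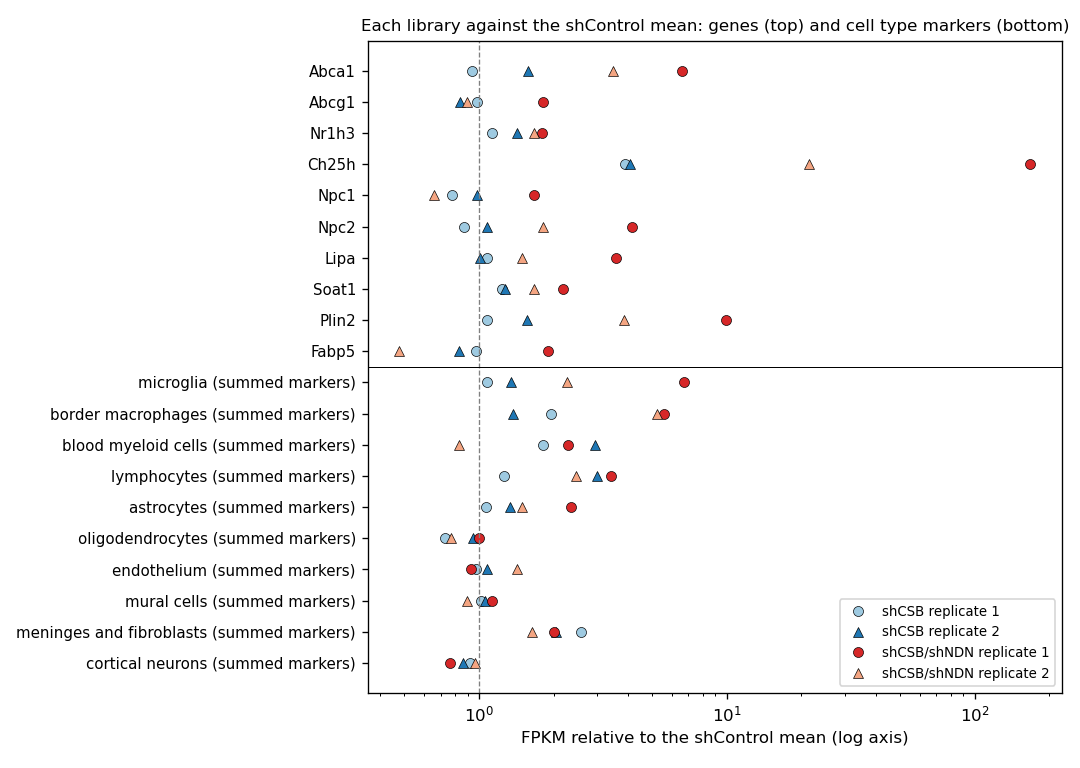
FPKM relative to the shControl mean, on a log axis, for the 10 genes (top) and the summed markers of 10 cell types (bottom), with 1 point for each shCSB and shCSB/shNDN library. Ch25h in shCSB/shNDN lies at 168 and 21.5 times the control mean, and the summed microglia markers lie at 6.70 and 2.27 times.

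Other cell types were measured in the same way. Astrocyte markers summed to 2.35 and 1.49 times the control mean in replicates 1 and 2 of shCSB/shNDN, with Gfap at 372 and 152 against 52.2 and 48.4. Without Gfap the other 7 markers summed to 1.12 and 1.11 times the control mean, and 3 of the 8 lay above both controls in both shCSB/shNDN libraries. Markers of brain border macrophages were low in FPKM, with sums of 1.16 and 1.23 in shControl, 2.34 and 1.65 in shCSB and 6.65 and 6.23 in shCSB/shNDN. These are 5.56 and 5.21 times the control mean in shCSB/shNDN, with 5 of 6 markers above both controls in both libraries, 2 of the 6 being expressed above the filter. Blood myeloid markers summed to 2.91 and 1.06 in shCSB/shNDN, 2.30 and 3.73 in shCSB and 1.10 and 1.44 in shControl, with the neutrophil marker Ly6g at 0 in all 6 libraries. Neuron markers summed to 0.762 and 0.960 of the control mean, with 4 of 8 below both controls in both shCSB/shNDN libraries and none above. Nrgn made up most of that sum, at 2234 and 2532 in shControl and 1749 and 2834 in shCSB/shNDN. The sum in replicate 2 therefore mainly follows Nrgn. Slc17a7, 1 of the 4 lower markers, was at 406 and 420 in shControl and 313 and 206 in shCSB/shNDN. Oligodendrocyte markers summed to 1.00 and 0.773 of the control mean. Endothelial markers summed to 0.930 and 1.43 times and mural markers to 1.13 and 0.893 times the control mean. Cldn5 made up 133 of the endothelial sum of 168 in replicate 2, with 55.6 in replicate 1 and 64.0 and 68.2 in shControl. Ly6c1 was at 29.1 and 16.9 in shCSB/shNDN against 33.7 and 33.1. Of the 7 endothelial markers, 3 lay above both controls in both shCSB/shNDN libraries and 1 below. Lymphocyte markers were low, with sums of 0.823 and 0.656 in shControl, 0.936 and 2.21 in shCSB and 2.52 and 1.83 in shCSB/shNDN. Meningeal markers were above both controls in both shCSB libraries for 9 of 9 and in both shCSB/shNDN libraries for 8 of 9, with sums of 2.57 and 2.04 times and then 2.02 and 1.63 times the control mean. Their part in the results was not tested.

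Among 16 further genes regulated by or acting with the liver X receptors, 0 passed the adjusted p in any comparison. In shCSB/shNDN against shControl 4 had an unadjusted p under 0.05 as higher and 1 as lower, with a list median difference of 0.17, where 13.4% of all expressed genes had such a p in either direction. Apoe, the apolipoprotein that ABCA1 loads, had FPKM of 1265 and 1126 in shControl, 1301 and 1341 in shCSB and 5680 and 3333 in shCSB/shNDN. Its difference was 1.87 ± 0.35 (SE; limma, adjusted p = 0.186). Rxrg, a retinoid X receptor that pairs with liver X receptors, was at 0.535 and 0.408, then 0.877 and 0.905, then 1.84 and 1.50. Lpl, the lipoprotein lipase, was at 1.39 and 1.13, then 1.89 and 1.03, then 11.4 and 2.85. Mylip, a ubiquitin ligase induced by liver X receptors, was at 3.42 and 3.29, then 3.38 and 3.49, then 8.94 and 5.62. The gene counted as lower was Abcg4, a sterol exporter of neurons, at 16.9 and 17.4 in shControl and 12.8 and 6.25 in shCSB/shNDN, with a difference of -0.86 ± 0.30 (SE; limma, adjusted p = 0.328).

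Among 5 expressed genes of oxysterol enzymes and a receptor, 1 had an unadjusted p under 0.05, as higher, with a list median of 0.26. That gene was Gpr183, the receptor that guides immune cells along oxysterol gradients. It was at 0.383 and 0.348 in shControl, 0.465 and 0.564 in shCSB and 4.99 and 1.36 in shCSB/shNDN. Its difference was 1.46 ± 0.41 (SE; limma, adjusted p = 0.289). Of the 5, 2 lay above both controls in both shCSB/shNDN libraries and 2 below, with 20.7% and 23.7% of all expressed genes. The enzyme gene Cyp46a1 was among the lower, at 104 and 107 in shControl and 83.3 and 84.9 in shCSB/shNDN. Of 14 expressed lysosomal genes, 2 had an unadjusted p under 0.05, a share near the 13.4% of all expressed genes. In this list 1 had an unadjusted p under 0.05 as higher, Lamp2, a lysosomal membrane protein, at 5.29 and 4.78, then 5.68 and 7.48, then 15.6 and 8.24, and 1 as lower, Tmem97, at 17.7 and 20.1, then 16.8 and 16.6, then 12.6 and 5.78. TMEM97 is a regulator of NPC1 levels. The median difference of the lysosomal list was 0.035. Of 12 expressed sterol carriers and receptors, Tspo, the mitochondrial translocator protein used as a glial activation marker in brain imaging, was at 7.25 and 5.10, then 8.65 and 9.73, then 39.4 and 20.5, with a difference of 2.05 ± 0.32 (SE; limma, adjusted p = 0.13). Over the 12, 1 had an unadjusted p under 0.05 as higher and 1 as lower, and the median difference was -0.12.

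Lipid droplet genes other than Plin2 were counted apart. Of 17 expressed, 0 had an unadjusted p under 0.05 in shCSB/shNDN against shControl, 3 lay above both controls and 2 below, and the median difference was -0.038. Of 8 other fatty acid binding proteins, 2 were expressed, Fabp3 with a difference of -0.52 ± 0.24 (SE) and Fabp7 with 0.41 ± 0.19 (limma, adjusted p = 0.407 and 0.409). Among 21 expressed genes of cholesterol synthesis, 1 had an unadjusted p under 0.05 as higher and 2 as lower, a share near the 13.4% of all expressed genes, with a median of -0.11. Among them, Hsd17b7 had a difference of 0.56 ± 0.17 (SE) and Nsdhl of -0.57 ± 0.18 (limma, adjusted p = 0.299 and 0.304). Their lowest library was shCSB/shNDN replicate 1 for 11 of the 21, against 19.0% of all expressed genes, and 6 of the 21 were higher in replicate 1 than in replicate 2. In shCSB against shControl, the list medians of all 7 lists lay between -0.20 and -0.00039.

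**Figure D4:**
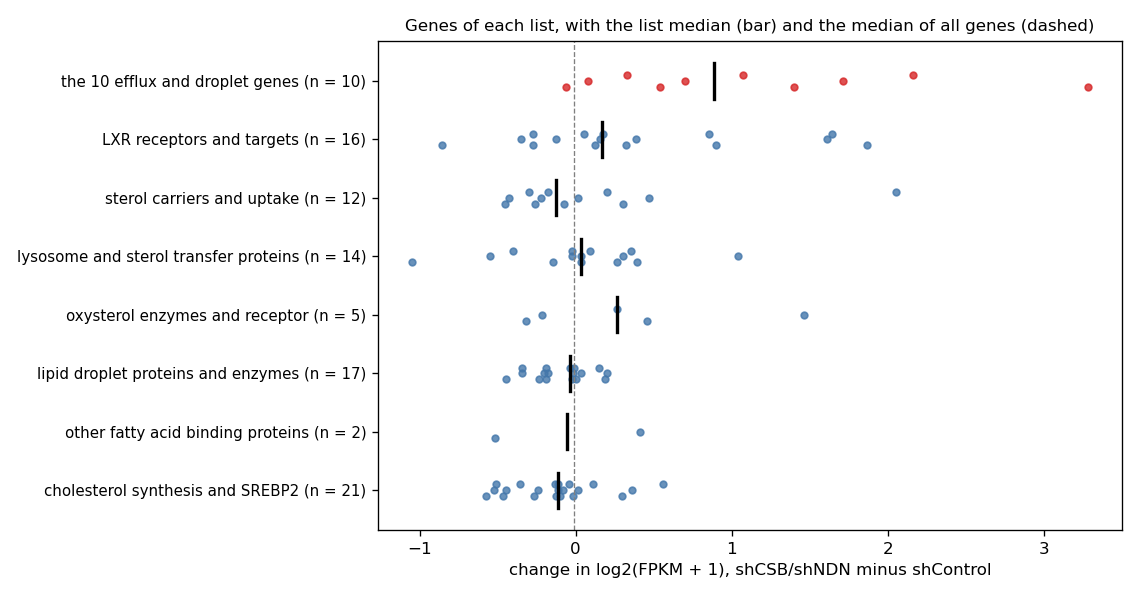
Difference in log2(FPKM + 1) of shCSB/shNDN from shControl for the 10 genes (top) and the expressed genes of the 7 related lists, 1 point per gene, with a bar at each list median and a dashed line at the median of all genes. The median of the 10 is 0.88, those of the 7 lists lie between -0.12 and 0.26, and the greatest difference in the 7 lists is that of Tspo at 2.05.

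By the root mean square difference of centred log2(FPKM + 1) profiles over the 6 libraries, compared among 11674 genes, Abca1 was most like Spint1 at 0.0980, Apoe at 0.155 and Cd63 at 0.157. Ch25h was most like Mpeg1 at 0.143, H2-Aa at 0.186 and Ccl3 at 0.194, and Plin2 most like Itgb5 at 0.0940, Tent5c at 0.102 and Plek at 0.112. Npc2 was most like Tnfrsf1a at 0.0774, Lipa most like Prkcd at 0.0616 and Npc1 most like Cln3 at 0.0274. These likenesses describe 6 libraries of 3 groups and carry no test.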

How the data were processed

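Total RNA of V1 cortex from 6 mice was sequenced after ribosomal depletion with a stranded kit, per the labels' protocols. HISAT2 2.0.4, FastQC and the GRCm39 build are named in the submitters' processing notes. The table's coordinates match GENCODE M21 (GRCm38) for 98.3% of the shared identifiers and are therefore given on GRCm38. The counting program and its strand setting are not given in the sources used here. The authors deposited FPKM values per gene. FPKM times gene length was a whole multiple of 1 step in each library, within 0.01 for 100% of values, which gave the reads. At 1 kb, 3 reads are worth an FPKM of 0.169 to 0.201.

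Entries sharing a symbol were summed, which left 54429 genes, and 16254 were kept because 2 or more libraries reached an FPKM of 0.5, all 10 members among them. limma 3.58.1 in R 4.3.3 was fitted to log2(FPKM + 1), pseudocount 1, with a trended prior over all 6 libraries, Benjamini-Hochberg adjustment over all kept genes and a threshold of 0.05. The fit had 3 residual and 3.42 prior degrees of freedom. Fold ratios of FPKM are stated as such. The code was tested on simulated data. Same-numbered libraries of different groups share only a number. Their deviations from their group means in log2(FPKM + 1) correlated at 0.054, -0.016 and -0.071. The members and the gene lists were chosen with earlier results of these data known. Of each related list, up to 4 genes with the smallest p in shCSB/shNDN against shControl and up to 2 in shCSB against shControl could be named, of each marker list the 3 with the highest FPKM, and for each member the 3 genes of most similar profile. Ly6g is named outside it, as a defining marker at 0. Some genes that this rule selects are not reported here.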

Additional observations from a re-analysis of the deposited data

How the results depend on the processing

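Leaving out 1 library decided the counts of calls. Genes past the threshold ran from 0 to 2 in shCSB against shControl, from 0 to 1076 in shCSB/shNDN against shCSB and from 0 to 1984 in shCSB/shNDN against shControl, and genes of the 10 from 0 to 7 in both comparisons with shCSB/shNDN. The high counts came with 1 shCSB/shNDN library left, which is assumed to vary like the others: 1076 and 1984 without replicate 1, 440 and 609 without replicate 2. With the 4 libraries compared alone, 2 genes passed in shCSB against shControl. In shCSB/shNDN against shControl, where 1 passed, 0 passed with no filter, 0 with the 4 libraries alone, 0 by limma-voom on reads and 3 with the replicate block; the cause was not tested. None of the 10 genes passed under any setting except those with 1 shCSB/shNDN library left out. Quantile normalization turned Npc2 in shCSB against shControl to 0.0073 and Fabp5 in shCSB/shNDN against shControl to 0.055. With 1 library left out, differences changed sign for Abca1 (-0.049 to 0.43), Lipa (-0.041 to 0.16) and Npc2 (-0.19 to 0.10) in shCSB against shControl; for Abcg1 (-0.021 to 0.94), Npc1 (-0.30 to 0.75) and Fabp5 (-0.87 to 1.05) in shCSB/shNDN against shCSB; and for Abcg1 (-0.15 to 0.81), Npc1 (-0.45 to 0.60) and Fabp5 (-1.02 to 0.90) in shCSB/shNDN against shControl. By limma-voom 6 of the 10 had an unadjusted p under 0.05 in each comparison with shCSB/shNDN and 0 in shCSB against shControl. Of all 16254 expressed genes, 1378 had such a p in shCSB/shNDN against shCSB, 2328 in shCSB/shNDN against shControl and 181 in shCSB against shControl. The Ch25h difference of shCSB/shNDN from shControl depends on the scale: 5.76 by limma-voom, and 5.29 when 0.1 is the pseudocount. With 2 libraries a group and 2 to 16 Ch25h reads in shControl and shCSB, small differences could not be detected.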

Other observations

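Further genes of lipid handling, named after their values were seen, also parted the shCSB/shNDN libraries. Apoc1, a small apolipoprotein, was at FPKM 0.660 and 0.450 in shControl, 0.739 and 1.51 in shCSB, and 19.2 in replicate 1 but 0.157 in replicate 2 of shCSB/shNDN. Hmgcs1, an early enzyme of cholesterol synthesis, was at 34.0 and 35.3, then 33.7 and 42.7, then 19.0 in replicate 1 and 53.4 in replicate 2. Msmo1, a later enzyme of the pathway, was at 13.4 and 14.9, then 13.4 and 16.9, then 8.62 and 26.8. For both enzymes replicate 1 was the lowest and replicate 2 the highest library of the 6, while replicate 1 was the highest of the 6 for all 10 efflux and storage genes.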
